A study of Mus musculus with 8 samples.

Results

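The 39 genes described here are immediate early and stress response genes, chosen by gene name and read from 1 table of array values. They were Fos, Fosb, Fosl1, Fosl2, Jun, Junb, Jund, Atf3, Maff, Mafk, Egr1, Egr2, Egr3, Nr4a1, Nr4a2, Nr4a3, Ier2, Ier3, Ier5, Csrnp1, Myc, Dusp1, Dusp2, Dusp5, Zfp36, Zfp36l1, Btg1, Btg2, Gadd45a, Gadd45b, Gadd45g, Il6, Socs3, Cebpb, Cebpd, Nfkbia, Ccn1, Ccn2 and Rhob. All 39 were measured among 18193 genes, each read at the probe set (the group of array probes that reports 1 transcript) with the highest mean over 8 arrays, and no filter on low values was applied. In the array annotation Ccn1 and Ccn2 carry older names, Cyr61 and Ctgf.

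The study compared 2 classes of isolated interstitial cells of Cajal (ICC), the pacemaker and signal-relaying cells of gut muscle, with the muscle layer they lie in. ICC-DMP are the cells labelled for the deep muscular plexus (3 arrays), ICC-MY those labelled for the myenteric region (3 arrays), and the comparison tissue was the tunica muscularis, the whole muscle coat (2 arrays). The mice were of the BALB/c strain and 6 to 9 days old in all 3 groups, and the samples were taken from small intestine, with no transgene or treatment in the labels. The titles call the arrays biological replicates without naming animals or cultures, so p-values measure the spread between these samples. Both ICC classes were isolated cells and the tissue was not, so in each comparison with tissue cell class and isolation cannot be told apart, and in whole-tissue RNA fewer cells of a type and less RNA per cell cannot be told apart either. The labels do not say how or for how long each class was isolated. Between the classes, a difference in isolation therefore cannot be told apart from cell class.

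Immediate early genes are switched on within minutes of a stimulus, without new protein synthesis, when kinases of the MAPK family, calcium or cyclic AMP activate transcription factors that are already present, such as serum response factor and CREB. Many of their products are transcription factors (FOS and JUN proteins that pair as AP-1, EGR and NR4A proteins), and others close the response down again by removing phosphate from kinases (DUSP proteins), degrading messenger RNA (ZFP36) or blocking cytokine signalling (SOCS3). Growth factors, membrane depolarisation, mechanical stretch, heat and enzymatic dissociation of tissue are all known triggers of these genes.

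The cell markers fitted the labels in part. Kit, the receptor that defines ICC, had mean log2 levels of 11.09 in ICC-DMP, 11.74 in ICC-MY and 7.82 in tissue. The ICC marker list exceeded tissue for 4 of 9 genes in ICC-DMP and 8 of 9 in ICC-MY, against 3.72% and 4.05% of all genes. In ICC-DMP the other 5 did not pass, among them Prkcq (-0.06), Edn3 (0.02) and Cacna1h (-0.79). The marker lists were chosen with earlier results of these data known, so their counts are no independent check of the labels. Of 8 smooth muscle markers 4 were lower than tissue in ICC-DMP and 7 in ICC-MY; in ICC-DMP Acta2 (-0.07), Actg2 (-0.61), Myh11 (-0.80) and Tagln (-0.82) did not pass. The 8 enteric neuron markers and the 6 mesothelial markers were lower than in tissue in both classes, and 9 of 11 macrophage markers were lower in ICC-DMP and 8 of 11 in ICC-MY. Array 1 of ICC-MY and array 1 of tissue had a narrower spread of values (an SD of 1.98 and 2.06 across probe sets, where the other 6 arrays had 2.22 to 2.31), and the actin control probes at the 3′ end exceeded those at the 5′ end by 4.66 on ICC-DMP array 3 and 4.28 on ICC-MY array 3, against 2.53 to 3.53 on the rest. Levels are log2 values as deposited, so a difference of 1 is a doubling, and a gene passed when its limma adjusted p, corrected over all 18193 genes, was under 0.05. No detection calls were used, so a level among the dim probe sets cannot be told from background. On both tissue arrays Fosb, Egr2 and Il6 read below the median of all probe sets (4.23 and 4.18), as did Gadd45a and Dusp2 on the 3 ICC-MY arrays (medians 4.22 to 4.31), and differences against such levels are given as lower bounds.

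Most of the immediate early and stress genes had higher levels in ICC-DMP than in tissue, fewer and less strongly in ICC-MY, and most were higher in ICC-DMP than in ICC-MY. In ICC-DMP, 28 of 39 exceeded tissue and 0 lay below it, against 3.72% of all genes higher and 7.32% lower, and the median difference was 3.31 against -0.04 over all genes. Of the 39, 17 were among the 25 largest increases of the whole array in that comparison. At an unadjusted p under 0.05, 30 of the 39 differed in ICC-DMP, against 3945 of all 18193 genes in either direction. Again 0 of the 30 were lower.

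In ICC-MY, 22 were higher than in tissue and 1, Fosl2, was lower, against 4.05% and 9.78% of all genes, with a median difference of 1.40 against -0.02. Here 5 of the 39 were among the 25 largest increases. Both comparisons use the same 2 tissue arrays, so the direct comparison of the classes is given as the test of their difference. ICC-DMP exceeded ICC-MY for 25 of the 39 genes and lay below it for 1, Il6, against 5.36% and 3.3% of all genes, with a median difference of 1.51 against -0.02. None of the 39 was among the 25 largest increases of that comparison.

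The mean log2 level of the 39 genes was 9.30, 9.47 and 9.47 on the ICC-DMP arrays, 7.81, 8.48 and 7.97 on the ICC-MY arrays, and 6.45 and 6.62 on the tissue arrays. The groups did not overlap, and within ICC-MY array 2 was the highest. Marker genes of other cells moved with the class difference: of 8 smooth muscle markers, 6 were at a higher level in ICC-DMP than ICC-MY, and the summed linear level of all 8 was 18329 to 23735 in ICC-DMP, 3553 to 8309 in ICC-MY and 20099 to 42899 in tissue. Of 7 fibroblast and PDGFRA cell markers 6 had a positive class difference and 1 passed, Pdgfra (2.10), with a summed level of 16602 to 24056 in ICC-DMP, 7652 to 17091 in ICC-MY and 16991 to 38881 in tissue. Of 8 endothelial markers 1 was higher in ICC-DMP than in ICC-MY, Plvap (2.97), and 2 were lower, Cdh5 (-1.28) and Esam (-2.07), with a summed level of 561 to 877, 261 to 511 and 418 to 524 in the 3 groups. Of 5 glia markers 1 was higher, Erbb3 (0.91), with a summed level of 192 to 219, 149 to 183 and 670 to 1092, and of 6 epithelial markers none passed between the classes (194 to 254, 188 to 499 and 708 to 5551; 0 at an unadjusted p under 0.05). Of the 9 ICC markers 5 were lower in ICC-DMP than in ICC-MY and 1, Thbs4, was higher. The part of these markers in the difference between the classes was not tested. None of the 11 macrophage markers passed between the classes (their summed level was 246 to 320 in ICC-DMP and 319 to 355 in ICC-MY). None of 7 mast cell markers and 5 lymphocyte markers passed in any comparison. At an unadjusted limma p under 0.05 the counts of these lists between the classes were 0, 1 and 0, against 3360 of all 18193 genes. No marker can be listed at 0, since log2 array values have no zero.

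**Figure D1:**
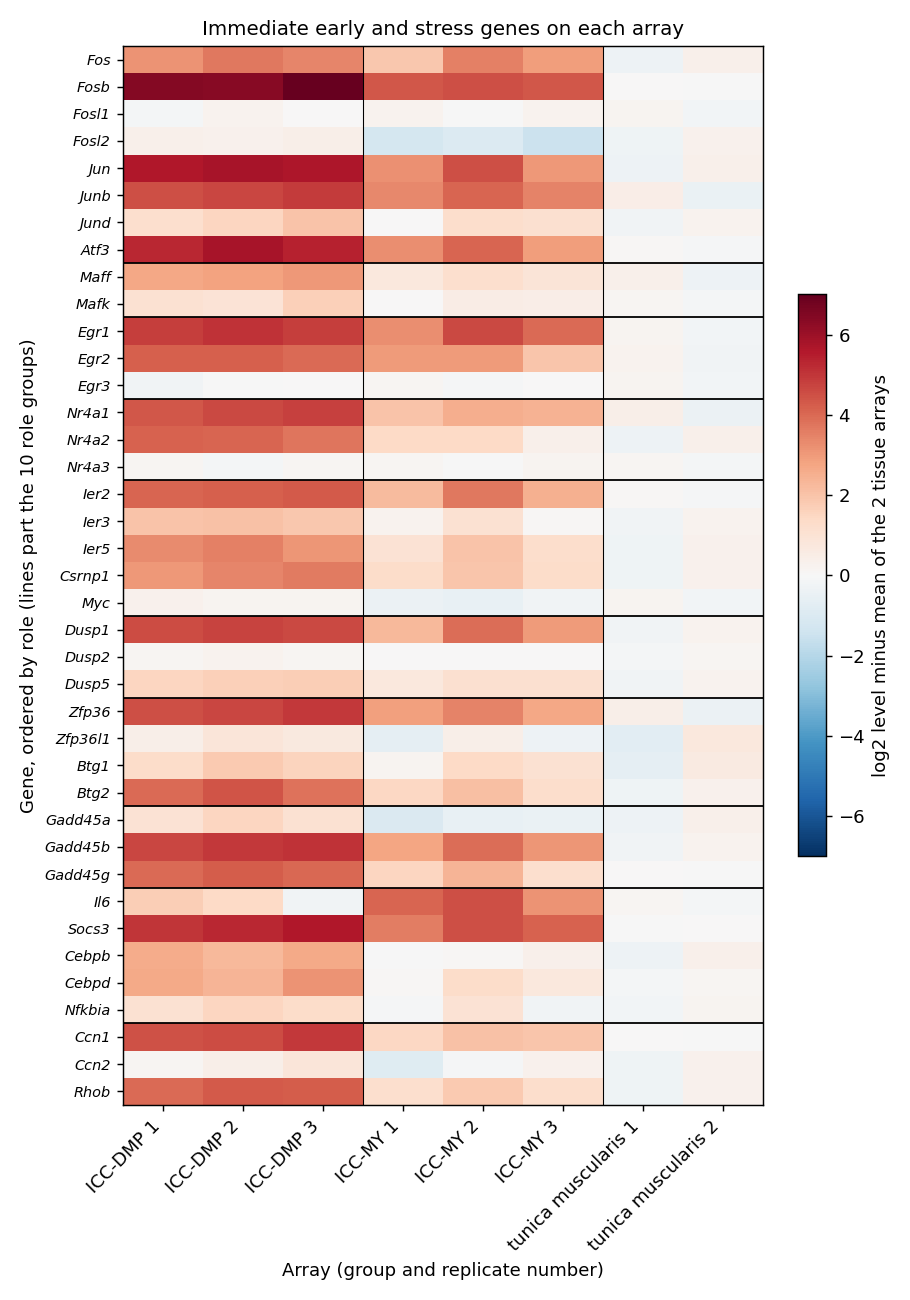
Heat map of the 39 genes (rows, ordered by role) on the 8 arrays (columns), coloured by log2 level minus the mean of the 2 tissue arrays. The 3 ICC-DMP columns are the reddest, with Fosb 6.63 above tissue on average; Fosl2 is blue in ICC-MY, and Il6 is redder in ICC-MY than in ICC-DMP.

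Since most of these genes moved together, the promoters of a few are given before the values. Windows of 300 bases, from 250 before to 50 after each annotated transcription start, were taken from RefSeq (mouse build GRCm38.p6) and held 32 of the 39 genes in 41 windows; Egr1, Egr3, Fosl1, Ier2, Myc, Cebpd and Ccn2 had none. Both strands were searched for 5 motifs: the CArG box bound by serum response factor, the cyclic AMP response element TGACGTCA bound by CREB, the AP-1 site TGANTCA, the EGR site GCGTGGGCG and the NF-kB site. Overlapping matches of 1 motif were counted once, and the letters of the cyclic AMP response element and the AP-1 site cannot match the same bases in full. Shown are the 5 genes with the most matches among those that passed in all 3 comparisons (ties at 1 match, which also held Btg2, Dusp1 and Nr4a1, were broken by the larger difference between ICC-DMP and tissue), with the matches in capitals and each sequence read 5′ to 3′ along its gene.
Egr2 (chr10:67535249-67535548, plus strand, NF-kB site): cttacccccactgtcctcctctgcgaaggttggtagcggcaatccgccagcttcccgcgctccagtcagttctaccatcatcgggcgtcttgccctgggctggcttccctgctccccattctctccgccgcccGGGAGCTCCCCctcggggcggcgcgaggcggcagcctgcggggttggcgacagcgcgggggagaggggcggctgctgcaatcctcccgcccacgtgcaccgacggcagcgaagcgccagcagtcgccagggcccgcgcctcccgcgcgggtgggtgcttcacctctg
Maff (chr15:79347270-79347569, plus strand, EGR site and then cyclic AMP response element): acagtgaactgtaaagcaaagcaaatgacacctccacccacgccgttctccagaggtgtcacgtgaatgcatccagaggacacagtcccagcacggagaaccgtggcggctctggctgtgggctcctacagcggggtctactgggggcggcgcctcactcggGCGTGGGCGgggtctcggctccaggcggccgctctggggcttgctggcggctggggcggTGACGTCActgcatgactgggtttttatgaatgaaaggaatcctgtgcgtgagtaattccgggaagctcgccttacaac
Csrnp1 (chr9:119982974-119983273, minus strand, AP-1 sites): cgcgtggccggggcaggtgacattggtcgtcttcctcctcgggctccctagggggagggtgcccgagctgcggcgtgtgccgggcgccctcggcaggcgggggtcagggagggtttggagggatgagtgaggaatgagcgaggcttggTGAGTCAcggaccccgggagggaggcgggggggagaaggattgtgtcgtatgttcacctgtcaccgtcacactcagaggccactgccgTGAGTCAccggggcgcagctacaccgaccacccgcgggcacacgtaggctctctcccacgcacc
Fosb (chr7:19309996-19310295, minus strand, NF-kB site): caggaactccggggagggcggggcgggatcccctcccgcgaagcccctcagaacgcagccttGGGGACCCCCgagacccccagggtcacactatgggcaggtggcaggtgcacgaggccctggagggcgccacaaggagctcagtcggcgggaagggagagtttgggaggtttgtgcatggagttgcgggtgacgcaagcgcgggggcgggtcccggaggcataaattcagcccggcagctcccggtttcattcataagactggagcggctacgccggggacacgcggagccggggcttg
Zfp36 (chr7:28379179-28379478, minus strand, CArG box): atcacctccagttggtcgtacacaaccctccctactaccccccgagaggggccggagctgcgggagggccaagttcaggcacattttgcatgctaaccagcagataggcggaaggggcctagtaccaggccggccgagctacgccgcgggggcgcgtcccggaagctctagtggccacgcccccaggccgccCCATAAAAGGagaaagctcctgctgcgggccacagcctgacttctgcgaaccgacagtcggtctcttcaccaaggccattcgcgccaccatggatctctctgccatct
Egr2 has 5 annotated starts, of which the first listed is printed, and the windows of the other 4 hold a CArG box. Counted from the start, the CArG box of Zfp36 spans positions -58 to -49, and the cyclic AMP response element of Maff positions -29 to -22.

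Of the 32 genes with a window, 15 held at least 1 match and 17 held none. The CArG box was found in 3 (Dusp5, Egr2 and Zfp36), which is 9.4%, against 1.58% of the 14452 measured genes with a window and 1.63% of all 32851 windows. The cyclic AMP response element was found in 3 (Btg2, Dusp1 and Maff), which is 9.4%, against 2.92% of measured genes and 1.79% of windows. The NF-kB site was found in 9 (Egr2, Fos, Fosb, Fosl2, Ier3, Il6, Maff, Nfkbia and Nr4a1), which is 28.1%, against 11.69% and 8.46%. The AP-1 site was found in 3 (Csrnp1, Il6 and Zfp36l1), 9.4% against 7.54% and 7.81%, and the EGR site in 1 (Maff), 3.1% against 1.17% and 0.61%. These counts describe letters in short windows and carry no test. Il6, the gene that ran against the rest between the classes, held both an AP-1 site and an NF-kB site, the latter at positions -44 to -35 from the start.

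**Figure D2:**
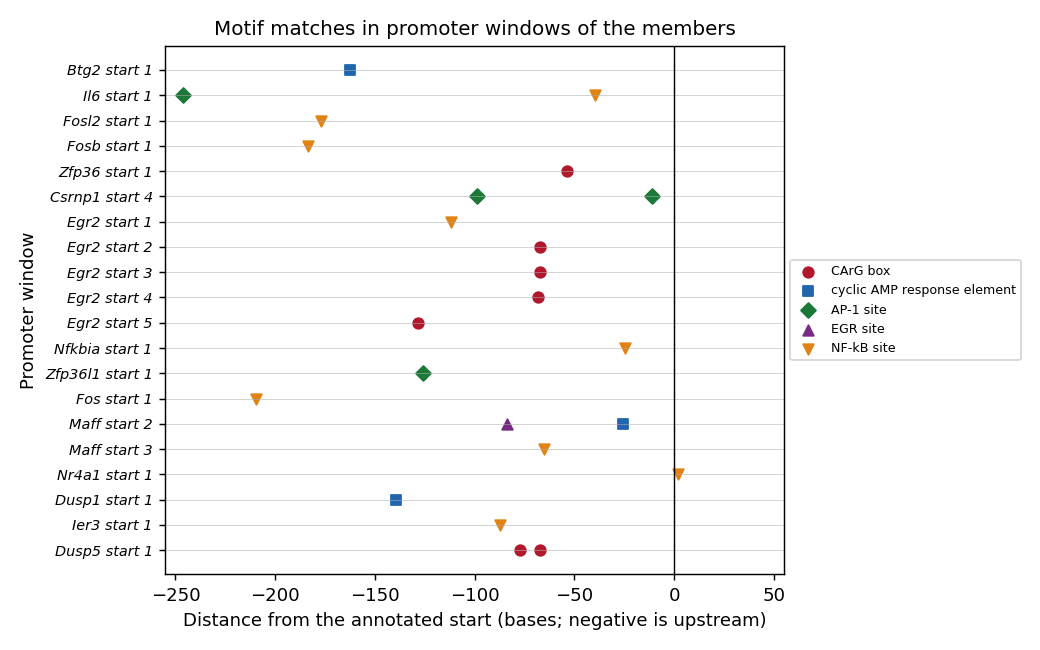
Positions of the motif matches in the promoter windows of the 15 genes that held any, by distance in bases from the annotated start (negative is upstream; the number after a gene is its annotated start in the RefSeq table). The CArG boxes of Egr2, Zfp36 and Dusp5 lie between positions -133 and -49.

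The AP-1 proteins and their partner ATF3 held the gene with the largest measured difference on the whole array in ICC-DMP against tissue. Of these 8 genes, 6 exceeded tissue in ICC-DMP; in ICC-MY 5 were higher and 1 was lower; and 4 were higher in ICC-DMP than in ICC-MY. Fosb, a FOS protein made in response to stimulation, read 9.73, 9.65 and 10.34 in ICC-DMP, 7.63, 7.81 and 7.64 in ICC-MY and 3.31 and 3.26 in tissue. The 3 groups stood apart in steps, with tissue far below both classes. The difference from the dim tissue level was at least 6.63 (SE 0.22, at least 98.8-fold) in ICC-DMP (adjusted p = 2.09e-06) and at least 4.41 (SE 0.22, at least 21.3-fold) in ICC-MY (adjusted p = 8.03e-06), and the classes differed by 2.21 (SE 0.19, adjusted p = 0.000235).

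Atf3, a stress-induced member of the ATF family, read 10.25, 10.75 and 10.39 in ICC-DMP, 8.27, 9.09 and 7.90 in ICC-MY and 5.06 and 4.93 in tissue. No array of one group reached the next group. It was 44.3-fold higher than tissue in ICC-DMP (log2 5.47, SE 0.32, adjusted p = 2.18e-05) and 10.7-fold higher in ICC-MY (log2 3.42, adjusted p = 0.000244), and the 2 classes differed by 2.05 (SE 0.29, adjusted p = 0.00291). Jun, the core JUN partner, was 5.68 above tissue in ICC-DMP and 3.57 in ICC-MY, and the classes differed by 2.11 (adjusted p = 0.00932). At the second Jun probe set, of similar mean level (9.26 against 9.44), the differences from tissue were smaller, 3.82 and 1.42. There the classes differed by 2.41, and all of these passed. Junb, a JUN protein that often opposes JUN, read 8.33, 8.51 and 8.72 in ICC-DMP, 7.16, 7.91 and 7.32 in ICC-MY and 4.30 and 3.36 in tissue. Both classes lay above tissue, by 4.70 (SE 0.32, adjusted p = 4.26e-05) and 3.64 (SE 0.32, adjusted p = 0.000154). On tissue array 2 Junb read below the median of all probe sets (4.18), so its differences from tissue are lower bounds. Every ICC-DMP array exceeded every ICC-MY array, but the difference between the classes, 1.06 (SE 0.28), did not pass (adjusted p = 0.0607). It passed in 11 of the 18 alternative settings run and failed in 7, among them leaving out any 1 ICC-DMP array. The 11 included leaving out ICC-MY array 2 (1.28, adjusted p = 0.0414), the compared groups alone (adjusted p = 0.0241) and taking the replicate number as a block (adjusted p = 0.0415). Between the classes, leaving out either tissue array repeats the fit of the compared groups alone, so the 11 hold that result more than once.

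Fos itself, the best known immediate early gene, was 10.7-fold above tissue in ICC-DMP (log2 3.42, adjusted p = 0.00175) and 6.83-fold in ICC-MY (log2 2.77, adjusted p = 0.00426). Its levels in the classes overlapped, from 13.13 to 13.68 in ICC-DMP and from 11.85 to 13.53 in ICC-MY, with a difference of 0.65 (SE 0.41, adjusted p = 0.502) that passed in 1 of 18 settings, quantile normalization (0.50, adjusted p = 0.0312). It was 0.19 without ICC-MY array 1 and 1.04 without ICC-MY array 2. Jund, the JUN protein with the steadiest expression, was higher than tissue in ICC-DMP by 1.54 (SE 0.39, adjusted p = 0.0394). This call was lost without any 1 of the 3 ICC-DMP arrays, ICC-MY array 3 or either tissue array (differences from 1.28 to 1.81, adjusted p from 0.0546 to 0.204). Jund did not pass in ICC-MY (0.80, adjusted p = 0.266) in 16 of 18 settings, the others being quantile normalization (0.85, adjusted p = 0.0186) and leaving out ICC-MY array 1 (1.17, adjusted p = 0.0308), and between the classes it passed only with the replicate block (0.75, adjusted p = 0.0289, against 0.312 without it).

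Of the 2 other FOS relatives, Fosl2 did not follow, and Fosl1 could not be told from background. Fosl2, a later-acting FOS protein, read 9.27, 9.26 and 9.34 in ICC-DMP, 7.73, 7.97 and 7.41 in ICC-MY and 8.66 and 9.22 in tissue. ICC-MY lay below both other groups on every array. It was lower in ICC-MY than in tissue by 2.36-fold (log2 -1.24, SE 0.22, adjusted p = 0.00657), was not told apart from tissue in ICC-DMP (0.35, SE 0.22, adjusted p = 0.454), and differed by 1.59 (SE 0.20, adjusted p = 0.00139) between the classes. A second, dimmer Fosl2 probe set did not pass in any comparison (0.09 in ICC-MY against tissue), and with the mean of both probe sets the ICC-MY decrease did not pass (-0.57, adjusted p = 0.0546). Fosl1 read between 3.95 and 4.32 in ICC-DMP, 4.05 and 4.33 in ICC-MY and 3.92 and 4.25 in tissue, and passed in no comparison, with differences from -0.10 to 0.15. These levels lay about the array medians of all probe sets (4.18 to 4.31).

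**Figure D3:**
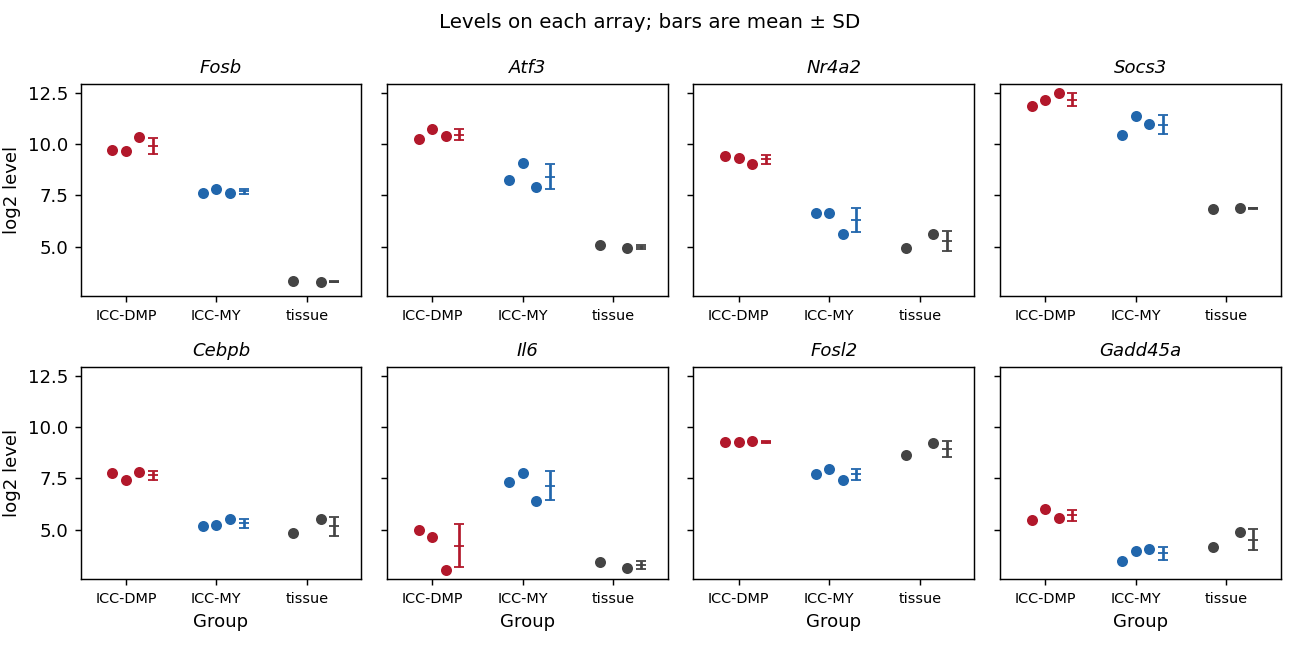
Log2 level of 8 genes on each array (points) with the group mean ± SD (bars; n = 3, 3 and 2). Fosb and Atf3 fall in steps from ICC-DMP to ICC-MY to tissue, Cebpb is high in ICC-DMP alone, Il6 is high in ICC-MY, and Fosl2 is lowest in ICC-MY.

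The genes of the small Maf proteins, which lack an activating domain and pair with other leucine zipper proteins, were higher in ICC-DMP in both comparisons. Maff read 6.88, 7.03 and 7.22 in ICC-DMP, 4.93, 5.40 and 5.09 in ICC-MY and 4.56 and 3.83 in tissue. The ICC-DMP arrays stood well above the rest, while ICC-MY lay just above tissue. On tissue array 2 Maff read below the median of all probe sets (4.18), so its differences from tissue are lower bounds. It exceeded tissue by 2.85 (SE 0.25, adjusted p = 0.000169) in ICC-DMP and ICC-MY by 1.91 (SE 0.22, adjusted p = 0.000951). The ICC-MY increase of 0.94 (adjusted p = 0.0386) was lost without any 1 ICC-DMP array, ICC-MY array 2 or 3, or tissue array 2 (0.57 to 0.97, adjusted p from 0.0591 to 0.216), and with only the compared groups in the fit (adjusted p = 0.125). Mafk read 8.05, 7.95 and 8.64 in ICC-DMP, 6.997, 7.49 and 7.46 in ICC-MY and 7.10 and 6.86 in tissue. ICC-DMP lay above both other groups, which overlapped. Its ICC-DMP increase of 1.24 (SE 0.25, adjusted p = 0.0157) was lost without tissue array 2 (1.11). The difference between the classes of 0.90 (adjusted p = 0.0449) was lost in 10 of 18 settings. Among them were leaving out any 1 ICC array (adjusted p from 0.0689 to 0.126) and the compared groups alone (adjusted p = 0.0539). Leaving out either tissue array repeats the latter fit.

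The EGR zinc finger factors bind GC-rich promoters and carry signals from MAPK to later genes. Egr1 read 12.51, 12.74 and 12.54 in ICC-DMP, 10.98, 12.33 and 11.68 in ICC-MY and 7.90 and 7.50 in tissue. Both classes stood clear of tissue, by 4.90 (SE 0.35, 29.8-fold, adjusted p = 5.47e-05) and 3.96 (SE 0.35, 15.6-fold, adjusted p = 0.000158). The classes did not overlap, but their difference of 0.94 (SE 0.31) did not pass (adjusted p = 0.129) unless ICC-MY array 2 was left out (1.27, adjusted p = 0.0232). Egr2 read 7.45, 7.46 and 7.20 in ICC-DMP, 6.22, 6.24 and 5.21 in ICC-MY and 3.53 and 2.98 in tissue. The groups formed 3 steps, with ICC-MY array 3 low in its group. The increase over the dim tissue level was at least 4.11 (SE 0.33, adjusted p = 0.000102) in ICC-DMP and at least 2.64 (SE 0.33, adjusted p = 0.000964) in ICC-MY, and the class difference of 1.48 (adjusted p = 0.0154) was lost without ICC-DMP array 1 or 2 (adjusted p = 0.0742 and 0.0726).

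Egr3 depended on the probe set. At its highest-mean probe set it read 5.52, 5.71 and 5.76 in ICC-DMP, 5.87, 5.67 and 5.75 in ICC-MY and 5.91 and 5.56 in tissue, and no comparison passed. At its other probe set, fitted among all probe sets after the values had been seen, it read 7.60, 7.70 and 6.70 in ICC-DMP, 4.11, 4.56 and 3.21 in ICC-MY and 2.81 and 2.58 in tissue. There the ICC-DMP arrays stood alone, at least 4.64 (SE 0.42) above the dim tissue level and 3.38 (SE 0.38) above ICC-MY, both passing, while the ICC-MY difference from tissue of 1.27 did not pass (adjusted p = 0.0988).

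The NR4A receptors are nuclear receptors that act without a known hormone and are induced like FOS and EGR genes. Nr4a1 read 11.11, 11.35 and 11.54 in ICC-DMP, 8.73, 9.32 and 9.18 in ICC-MY and 7.15 and 6.37 in tissue. The 3 groups were apart, and the steps from tissue were 4.58 (SE 0.28, 23.9-fold, adjusted p = 2.38e-05) in ICC-DMP and 2.32 (SE 0.28, adjusted p = 0.000794) in ICC-MY, with 2.25 (SE 0.25, adjusted p = 0.000698) between the classes. Nr4a2 read 9.42, 9.34 and 9.03 in ICC-DMP, 6.64, 6.63 and 5.60 in ICC-MY and 4.91 and 5.61 in tissue. It had the largest class difference of the 39 genes that passed as higher, 2.97 (SE 0.31, 7.82-fold, adjusted p = 0.000572). ICC-MY array 3 overlapped tissue, and the ICC-MY increase of 1.03 did not pass (adjusted p = 0.0999), but did in 5 of 18 settings, among them leaving out that array (1.38, adjusted p = 0.0157) and the replicate block (1.26, adjusted p = 0.00716). Of its 6 probe sets, 3 passed in ICC-DMP against tissue and 3 did not. In ICC-MY against tissue, other Nr4a2 probe sets passed at 1.53 and 0.89 (limma adjusted p = 0.0116 and 0.0206 over all probe sets). The rest did not. The probe set at 0.89 read below the median of all probe sets on every ICC-MY and tissue array, so its levels cannot be told from background.

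Nr4a3 read 6.78, 6.54 and 6.83 in ICC-DMP, 6.79, 6.66 and 6.88 in ICC-MY and 6.83 and 6.52 in tissue at its highest-mean probe set, and passed in no comparison. A second Nr4a3 probe set, read the same way as that of Egr3, gave 7.99, 8.14 and 7.98 in ICC-DMP, 6.14, 6.27 and 5.99 in ICC-MY and 5.81 and 5.47 in tissue. On it ICC-DMP exceeded tissue by 2.39 (SE 0.16) and ICC-MY by 1.90 (SE 0.14), and both differences passed; its remaining probe set did not pass.

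**Figure D4:**
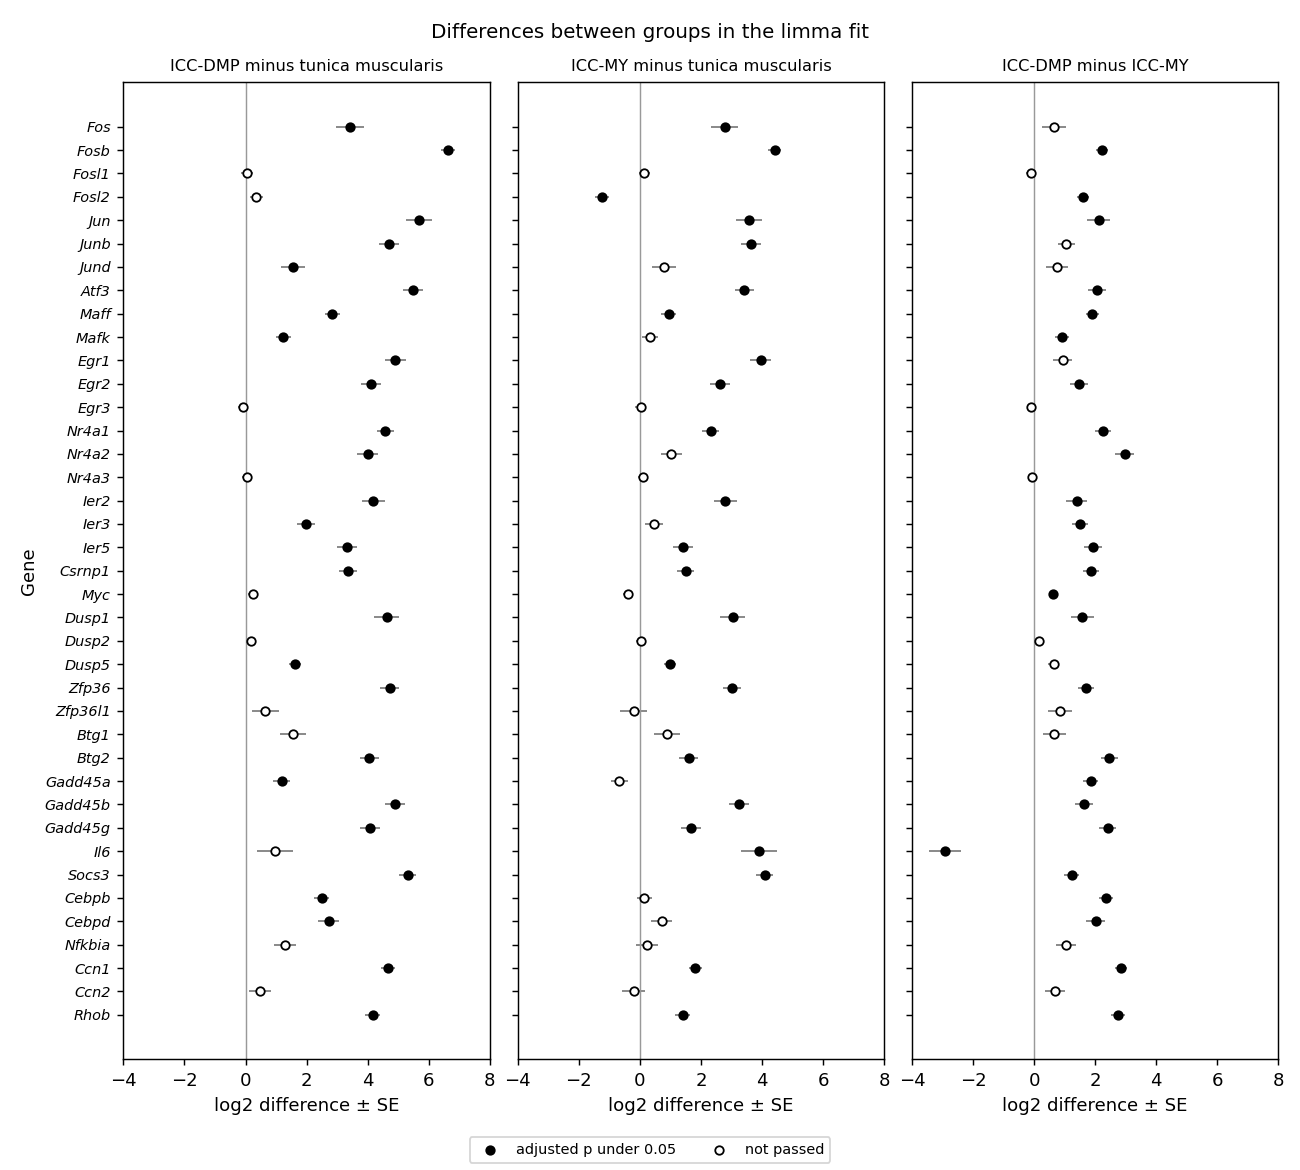
Log2 differences ± SE of the 39 genes in the 3 comparisons of the limma fit; filled points passed (adjusted p under 0.05) and open points did not. Points spread from -0.08 to 6.63 for ICC-DMP against tissue, and Il6 at -2.93 is the filled point left of 0 between the classes.

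Among the genes of other nuclear response proteins, 4 of 5 exceeded tissue in ICC-DMP, 3 of 5 in ICC-MY, and all 5 were higher in ICC-DMP than in ICC-MY. Ier2, a small nuclear protein, read 10.06, 10.16 and 10.24 in ICC-DMP, 8.16, 9.65 and 8.47 in ICC-MY and 6.03 and 5.89 in tissue. Both classes lay above tissue, with ICC-MY array 2 close to ICC-DMP. It rose 18.3-fold in ICC-DMP (log2 4.19, SE 0.38, adjusted p = 0.000228) and 6.95-fold in ICC-MY (log2 2.80, adjusted p = 0.0016). The class difference of 1.39 (adjusted p = 0.0412) was lost in 9 of 18 settings. Among them were leaving out any 1 ICC array other than ICC-MY array 2 (adjusted p from 0.0718 to 0.139) and the compared groups alone (adjusted p = 0.0559). Leaving out either tissue array repeats the latter fit.

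Csrnp1, a nuclear protein first found as an axin-induced gene, read 8.72, 9.08 and 9.34 in ICC-DMP, 6.98, 7.63 and 6.96 in ICC-MY and 5.40 and 5.98 in tissue. The groups were in 3 steps. It exceeded tissue by 3.36 (SE 0.29, adjusted p = 0.000157) and ICC-MY by 1.86 (SE 0.26, adjusted p = 0.0025), while the ICC-MY increase of 1.50 (adjusted p = 0.00929) was lost without tissue array 1 (1.21, adjusted p = 0.0615). Ier5, a regulator of heat shock factor, read 10.18, 10.38 and 9.93 in ICC-DMP, 7.84, 8.85 and 8.06 in ICC-MY and 6.52 and 7.18 in tissue. It was 3.31 (SE 0.33, adjusted p = 0.000354) above tissue in ICC-DMP and 1.91 (SE 0.29, adjusted p = 0.00419) above ICC-MY. Its ICC-MY increase of 1.40 (adjusted p = 0.0236) was lost without ICC-DMP array 1 (adjusted p = 0.0509), without tissue array 1 (1.07, adjusted p = 0.136), with the mean of its 3 probe sets (0.40, adjusted p = 0.145), and with only the compared groups in the fit (adjusted p = 0.0885).

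Ier3, an anti-apoptotic protein, was higher in ICC-DMP than in tissue by 1.98 (adjusted p = 0.00307) and than in ICC-MY by 1.51 (adjusted p = 0.00815), and ICC-MY overlapped tissue. Myc, the growth-promoting transcription factor, lay above tissue in ICC-DMP and below it in ICC-MY, from 4.82 to 4.91, 4.13 to 4.36 and 4.45 to 4.79 in the 3 groups. On ICC-MY arrays 1 and 2 Myc read below the median of all probe sets (4.31 and 4.22), so its ICC-MY level cannot be told from background. Neither difference from tissue passed (0.24 and -0.38), and that between the classes, 0.62 (SE 0.14, adjusted p = 0.0311), was lost without any 1 of the 6 ICC arrays (adjusted p from 0.0520 to 0.131).

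The dual-specificity phosphatases inactivate MAP kinases and are made as feedback. Dusp1, which acts in the nucleus, read 13.10, 13.26 and 13.15 in ICC-DMP, 10.81, 12.43 and 11.51 in ICC-MY and 8.28 and 8.81 in tissue. The spread within ICC-MY was wider than in the other groups, yet the groups stayed apart. Dusp1 was 24.7-fold above tissue in ICC-DMP (log2 4.62, SE 0.41, adjusted p = 0.000184) and 8.24-fold in ICC-MY (log2 3.04, adjusted p = 0.00144). The class difference of 1.58 (adjusted p = 0.0313) was lost without any 1 ICC-DMP array or ICC-MY array 3 (adjusted p from 0.0983 to 0.123) and with an intensity trend in the prior (adjusted p = 0.0501). Dusp5, which acts on ERK in the nucleus, read 7.88, 8.01 and 8.07 in ICC-DMP, 7.10, 7.48 and 7.47 in ICC-MY and 6.10 and 6.61 in tissue. It was 1.63 (SE 0.20, adjusted p = 0.00119) above tissue in ICC-DMP; the ICC-MY increase of 0.99 (adjusted p = 0.0125) was lost without tissue array 1 (0.74, adjusted p = 0.0722) and with only the compared groups in the fit (adjusted p = 0.0667). The class difference of 0.64 did not pass (adjusted p = 0.0745), but did in 7 of 18 settings. Among them were the replicate block (adjusted p = 0.0181) and the compared groups alone (adjusted p = 0.0441). Leaving out either tissue array repeats the latter fit. Dusp2, an immune cell phosphatase, read 4.35, 4.42 and 4.35 in ICC-DMP, 4.24, 4.19 and 4.21 in ICC-MY and 4.02 and 4.35 in tissue, and passed in no comparison.

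Genes that shorten messenger RNA life or restrain growth were split. Zfp36, which marks AU-rich messages for decay, read 10.22, 10.35 and 10.65 in ICC-DMP, 8.56, 9.15 and 8.40 in ICC-MY and 6.10 and 5.27 in tissue. It formed 3 separate steps, 26.4-fold above tissue in ICC-DMP (log2 4.72, SE 0.30, adjusted p = 3.51e-05) and 8.13-fold in ICC-MY (log2 3.02, adjusted p = 0.000332), with 1.70 (adjusted p = 0.00543) between the classes. Btg2, an antiproliferative cofactor of RNA deadenylation, read 10.55, 10.96 and 10.40 in ICC-DMP, 8.03, 8.68 and 7.82 in ICC-MY and 6.26 and 6.89 in tissue. It was higher than tissue by 4.06 (SE 0.31, adjusted p = 8e-05) in ICC-DMP and than ICC-MY by 2.46 (SE 0.27, adjusted p = 0.000768), and its ICC-MY increase of 1.60 (adjusted p = 0.00956) was lost without tissue array 1 (1.28, adjusted p = 0.0632).

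Zfp36l1, the relative of Zfp36, read 11.33, 11.81 and 11.61 in ICC-DMP, 10.30, 11.32 and 10.58 in ICC-MY and 10.18 and 11.68 in tissue. The ICC-MY arrays lay between the 2 tissue arrays, ICC-DMP array 2 lay above both, and the gene passed in no comparison; between the classes it passed only with the replicate block (0.85, adjusted p = 0.0224). Btg1, the relative of Btg2, read 11.51, 12.06 and 11.78 in ICC-DMP, 10.45, 11.62 and 11.28 in ICC-MY and 9.62 and 10.85 in tissue. ICC-DMP lay above tissue, but the difference of 1.55 (SE 0.43) did not pass (adjusted p = 0.0571). It passed in 10 of 18 settings, among them leaving out ICC-MY array 1 (adjusted p = 0.0244) or tissue array 2 (2.16, adjusted p = 0.0220) and the replicate block (1.51, adjusted p = 0.00119), and was 0.93 without tissue array 1. With the block the ICC-MY difference from tissue (0.84, adjusted p = 0.0200) and the class difference (0.66, adjusted p = 0.0357) passed too. At the other Btg1 probe sets ICC-DMP exceeded tissue by 2.13 and 4.10 and exceeded ICC-MY by 1.25 and 1.37, and all of these passed.

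All 3 GADD45 genes, whose products are stress sensors that act on the p38 and JNK kinase pathways, were higher in ICC-DMP than in ICC-MY. Gadd45b read 11.88, 12.19 and 12.27 in ICC-DMP, 10.01, 11.12 and 10.32 in ICC-MY and 6.97 and 7.48 in tissue. It was 29.6-fold above tissue in ICC-DMP (log2 4.89, SE 0.32, adjusted p = 3.84e-05) and 9.55-fold in ICC-MY (log2 3.26, adjusted p = 0.000303), and differed by 1.63 (SE 0.29, adjusted p = 0.00906) between the classes. Gadd45g read 10.40, 10.68 and 10.44 in ICC-DMP, 7.91, 8.81 and 7.58 in ICC-MY and 6.44 and 6.41 in tissue. The groups did not overlap; the increases were 4.08 (SE 0.32, adjusted p = 0.000101) and 1.67 (SE 0.32, adjusted p = 0.0096), the latter lost without tissue array 2 (1.66, adjusted p = 0.0518) and with only the compared groups in the fit (adjusted p = 0.0542), and the classes differed by 2.40 (SE 0.29, adjusted p = 0.00116).

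Gadd45a, the member induced by p53, moved apart between the classes. It read 5.49, 5.99 and 5.59 in ICC-DMP, 3.47, 3.97 and 4.06 in ICC-MY and 4.15 and 4.86 in tissue, so that every ICC-DMP array lay above tissue and every ICC-MY array below it. The ICC-DMP increase of 1.18 (adjusted p = 0.0290) was lost without any 1 ICC-DMP array (adjusted p from 0.0648 to 0.103) or tissue array 1 (0.83, adjusted p = 0.169). The ICC-MY difference of -0.67 did not pass (adjusted p = 0.174), but the replicate block gave -0.71 (adjusted p = 0.0283), and leaving out the 2 arrays of narrow range gave -0.85 (adjusted p = 0.0453), each of which passed. The class difference, at least 1.86 (SE 0.25, adjusted p = 0.00205), kept its call in each of the 17 settings that tested it.

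The cytokine arm held the 1 gene that was lower in ICC-DMP than in ICC-MY. Il6, the cytokine interleukin 6, read 4.97, 4.66 and 3.04 in ICC-DMP, 7.30, 7.77 and 6.37 in ICC-MY and 3.40 and 3.12 in tissue. Every ICC-MY array stood above every other array. The ICC-MY increase over the dim tissue level was at least 14.9-fold (log2 3.89, SE 0.59, adjusted p = 0.00276), and ICC-DMP, of which array 3 was as dim as tissue, was 7.62-fold lower than ICC-MY (log2 -2.93, SE 0.52, adjusted p = 0.00957). The ICC-DMP difference from tissue, 0.96 (SE 0.59), did not pass (adjusted p = 0.437); it was 0.59 without ICC-DMP array 1 and 1.56 without ICC-DMP array 3, and with the replicate block it passed (1.45, adjusted p = 0.00384).

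Socs3, the feedback inhibitor of interleukin 6 receptor signalling, read 11.88, 12.17 and 12.49 in ICC-DMP, 10.46, 11.39 and 10.99 in ICC-MY and 6.85 and 6.88 in tissue. It was high in both classes, 39.8-fold above tissue in ICC-DMP (log2 5.32, SE 0.28, adjusted p = 1.23e-05) and 16.9-fold in ICC-MY (log2 4.08, SE 0.28, adjusted p = 4.36e-05). The class difference of 1.23 (adjusted p = 0.0185) was lost without ICC-DMP array 2 or 3 (adjusted p = 0.0753 for each), without ICC-MY array 3 (adjusted p = 0.0572), and with an intensity trend in the prior (adjusted p = 0.0583). Il6 and Socs3 thus ran in opposite directions between the classes.

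The genes of the C/EBP factors, transcription factors of the acute phase response, were high in ICC-DMP. Cebpb read 7.76, 7.40 and 7.80 in ICC-DMP, 5.15, 5.21 and 5.54 in ICC-MY and 4.82 and 5.50 in tissue. ICC-MY and tissue overlapped, and ICC-DMP exceeded tissue by 2.49 (SE 0.24, adjusted p = 0.000314) and ICC-MY by 2.35 (SE 0.22, adjusted p = 0.000286). Cebpd read 8.70, 8.44 and 9.22 in ICC-DMP, 6.17, 7.35 and 6.80 in ICC-MY and 5.95 and 6.17 in tissue. It was 2.73 (SE 0.35, adjusted p = 0.00148) above tissue and 2.01 (SE 0.31, adjusted p = 0.00465) above ICC-MY, and ICC-MY did not pass against tissue (0.71, adjusted p = 0.268) in 17 of 18 settings, the exception being quantile normalization (0.94, adjusted p = 0.0428).

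Nfkbia, the inhibitor that NF-kB itself induces, read 12.49, 12.94 and 12.69 in ICC-DMP, 11.35, 12.44 and 11.18 in ICC-MY and 11.21 and 11.64 in tissue at its highest-mean probe set. Every ICC-DMP array lay above the other groups, but neither the difference from tissue (1.28, adjusted p = 0.0604) nor that from ICC-MY (1.05, adjusted p = 0.0993) passed. They passed in 6 and 3 of 18 settings, and both of them without ICC-MY array 2 (1.28, adjusted p = 0.00784, and 1.44, adjusted p = 0.00614) and with the replicate block (1.41, adjusted p = 0.00412, and 1.05, adjusted p = 0.00848). Its 4 other probe sets exceeded tissue in ICC-DMP by 1.73 to 2.71 and ICC-MY by 1.32 to 1.97, and all of these passed.

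**Figure D5:**
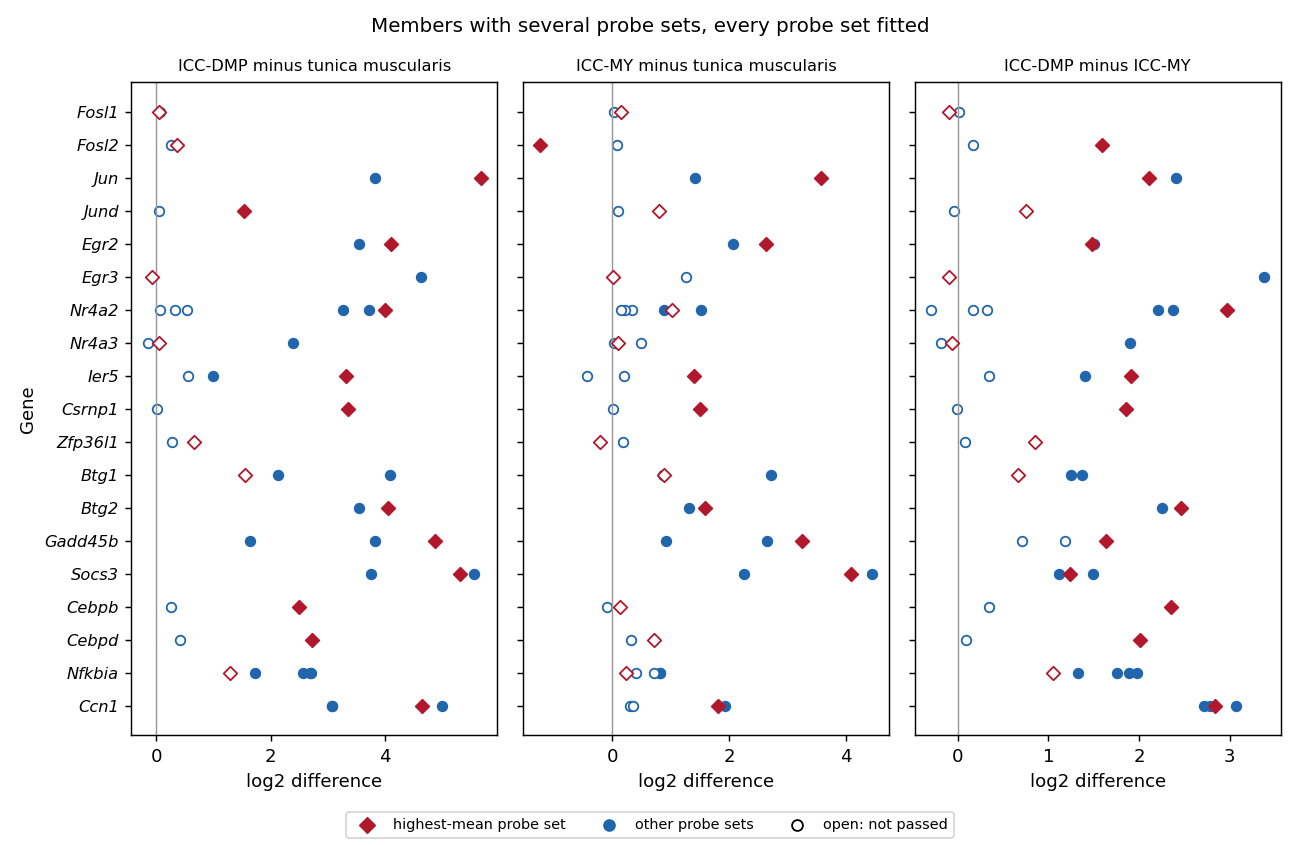
Log2 differences of every probe set of the 19 genes that have several, from a fit of all probe sets; diamonds are the highest-mean probe sets used for the counts and circles the others, filled where they passed. Egr3, Nr4a3, Btg1 and Nfkbia have an open diamond and filled circles in ICC-DMP against tissue, and Jund, Csrnp1, Cebpb and Cebpd a filled diamond and an open circle.

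The choice of probe set therefore bore on several genes. Of 12 genes with several probe sets that passed as higher in ICC-DMP against tissue, another probe set passed in the same direction for 8 and none for Cebpb, Cebpd, Csrnp1 and Jund. In ICC-MY against tissue this held for 6 of 9, with none for Csrnp1, Fosl2 and Ier5, and between the classes for 7 of 12, with none for Cebpb, Cebpd, Csrnp1, Fosl2 and Gadd45b. No second probe set passed in the opposite direction.

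The last group acts at the cell surface and on the cytoskeleton. Ccn1, a matrix protein induced by stretch, read 11.40, 11.47 and 11.87 in ICC-DMP, 8.38, 8.99 and 8.87 in ICC-MY and 6.93 and 6.91 in tissue. The arrays of each group lay close together and the groups far apart. It was 25.3-fold above tissue in ICC-DMP (log2 4.66, SE 0.22, adjusted p = 8.14e-06) and 3.53-fold in ICC-MY (log2 1.82, SE 0.22, adjusted p = 0.00096), and 7.15-fold higher in ICC-DMP than in ICC-MY (log2 2.84, SE 0.20, adjusted p = 9.02e-05). All 4 of its probe sets passed in ICC-DMP against tissue and between the classes, but in ICC-MY against tissue 2 of the 4 did not (0.30 and 0.37, adjusted p = 0.385 and 0.224 over all probe sets). Rhob, a short-lived small GTPase, read 11.56, 11.89 and 11.81 in ICC-DMP, 8.76, 9.42 and 8.82 in ICC-MY and 7.32 and 7.88 in tissue. It followed Ccn1, at 4.16 (SE 0.25, adjusted p = 2.54e-05), 1.40 (SE 0.25, adjusted p = 0.00714) and 2.76 (SE 0.23, adjusted p = 0.000168) in the 3 comparisons. Ccn2, the close relative of Ccn1, read 8.63, 8.89 and 9.34 in ICC-DMP, 7.62, 8.42 and 8.78 in ICC-MY and 8.18 and 8.77 in tissue. All 3 groups overlapped, and it passed only between the classes and only with the replicate block (0.68, adjusted p = 0.0198).

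Genes next to these in the pathway were read from 5 lists. As background, 3.72% of all genes were higher and 7.32% lower in ICC-DMP than in tissue. The shares were 4.05% and 9.78% in ICC-MY against tissue, and 5.36% and 3.3% in ICC-DMP against ICC-MY. Of 30 other primary response genes, 13 were higher and 0 lower in ICC-DMP than in tissue (median 1.09), 3 were higher and 4 lower in ICC-MY (median 0.22), and 15 were higher and 0 lower in ICC-DMP than in ICC-MY (median 0.94). Klf2, a flow-responsive factor, was 3.36 above tissue in ICC-DMP (adjusted p = 5.44e-05) and 2.90 above ICC-MY. Ptgs2, the inducible prostaglandin synthase, was 3.24 higher in ICC-DMP than in ICC-MY (adjusted p = 0.00215) and at -1.92 in ICC-MY against tissue (adjusted p = 0.0336). Rgs1 and Rgs2, which shorten G protein signals, fell by 3.90 and 3.79 in ICC-MY against tissue and did not pass in ICC-DMP (-0.58 and -0.89).

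Of 12 heat shock genes, 4 were higher and 0 lower in ICC-DMP than in tissue, 2 higher and 2 lower in ICC-MY, and 2 higher and 0 lower in ICC-DMP than in ICC-MY. Hspa1a, the stress-inducible HSP70, was 5.20 above tissue in ICC-DMP and 3.76 in ICC-MY, and its near-identical copy Hspa1b, which shares sequence with it, 2.89 and 1.83. Hspb1, a small heat shock protein, rose by 1.04 in ICC-DMP and fell by 0.89 in ICC-MY against tissue, with 1.93 between the classes, and Dnajb1, an HSP70 partner, was 1.85 above tissue in ICC-DMP and 1.50 above ICC-MY.

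The MAPK feedback genes did not lean toward ICC-DMP. Of 11, 6 were higher and 0 lower in ICC-DMP than in tissue, 8 higher and 0 lower in ICC-MY, and 2 higher and 3 lower in ICC-DMP than in ICC-MY, with a median class difference of -0.22 against 1.51 for the 39 genes. The shares higher were 54.5%, 72.7% and 18.2%, against 3.72%, 4.05% and 5.36% of all genes, and 3.3% of all genes were lower between the classes. Spry1, an inhibitor of receptor kinase signalling, was 2.91 above tissue in ICC-MY (adjusted p = 0.000446) and -2.98 in ICC-DMP against ICC-MY (adjusted p = 0.000304). Phlda1 was 1.56 above tissue in ICC-DMP and 2.83 in ICC-MY. Dusp4, a nuclear MAPK phosphatase like Dusp1, was 3.09 higher in ICC-DMP than in ICC-MY (adjusted p = 0.00117), and Etv5, an ETS factor driven by ERK, exceeded tissue by 3.03 and 1.97.

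The kinases and factors upstream passed about as often as all genes did. Of 22 measured among 29 listed, 1 was higher and 1 lower in ICC-DMP than in tissue, 1 higher and 2 lower in ICC-MY, and 2 higher and 0 lower between the classes. The shares higher were 4.55% in each comparison with tissue and 9.09% between the classes, against 3.72%, 4.05% and 5.36% of all genes. The gene that rose against tissue was Stat3, the factor activated by interleukin 6 family receptors, 4.63 above tissue in ICC-DMP (adjusted p = 8.68e-05), 2.78 in ICC-MY (adjusted p = 0.00115) and 1.85 between the classes. Nras fell by 1.10 and by 0.77 against tissue, and Crem, a cyclic AMP-responsive factor, by 0.74 in ICC-MY. Crem was the other gene higher in ICC-DMP than in ICC-MY, with mean levels of 6.66 and 6.00. Of 12 other leucine zipper partners of AP-1, 1 exceeded tissue in ICC-DMP, 8.33% against 3.72% of all genes. In ICC-MY 2 of the 12 lay below tissue, as did 9.78% of all genes. Jdp2, a JUN dimerisation partner, was at 1.36 in ICC-DMP and -1.38 in ICC-MY against tissue, and Maf at 0.16, which did not pass, and -2.92. Both were higher in ICC-DMP than in ICC-MY, by 2.75 and 3.07.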

How the data were processed

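RNA from 8 samples (3 ICC-DMP, 3 ICC-MY, 2 tunica muscularis) was hybridised to 1-colour arrays after 2 rounds of amplification from about 50 ng, per the labels' protocols. The authors deposited log2 values per probe set; the submitters' processing notes name RMA and limma with no version or order. Array number limits the precision. The 64 control probe sets were left out, and of 45037 others 34945 named 1 gene, 932 several and 9160 none in the platform annotation. Each of 18193 genes was read at its probe set with the highest mean. limma 3.58.1 in R 4.3.3 (lmFit, contrasts.fit, eBayes) fitted all 8 arrays in 3 groups, 2-sided, with Benjamini-Hochberg adjustment over all genes; the fit was tested on simulated data.

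The members and lists were chosen with earlier results of these data known. Per-array values were given for up to 3 members per role with the smallest p, every member that passed in no comparison and every member that passed as lower; Fos, Jun, Jund, Ier3 and Myc are given by range or difference. From each list up to 4 members that passed, with the largest differences, were named.

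Samples with the same number in the titles deviated together (correlations of deviations from group means 0.29, 0.50 and 0.39 between the ICC classes, 0.16 to 0.61 against tissue). This pairing comes from the data, not the labels; the fit with the number as a block is given where it changes a call. Alternatives were quantile normalization, median centring, the mean of probe sets, leaving out dim genes (log2 mean under 5), the compared groups alone, array weights, an intensity trend with a robust prior, leaving out the 2 narrow-range arrays or each array, and, chosen after seeing the data, fitting every probe set. Promoter windows came from RefSeq, GRCm38.p6; sequences from chromosome 18 were not used here.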

Additional observations from a re-analysis of the deposited data

Results flagged for a closer look

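For 26 genes the change from tissue differed between the ICC classes by the direct test of ICC-DMP against ICC-MY (log2 differences, limma adjusted p under 0.05). Il6 was the 1 gene with a lower value in ICC-DMP, at -2.93. The differences were largest for Nr4a2 (2.97), Ccn1 (2.84) and Rhob (2.76), followed by Btg2 (2.46), Gadd45g (2.40), Cebpb (2.35), Nr4a1 (2.25) and Fosb (2.21). Jun (2.11), Atf3 (2.05) and Cebpd (2.01) came next, then Ier5 (1.91), Maff (1.91), Gadd45a (1.86) and Csrnp1 (1.86). Zfp36 differed by 1.70, Gadd45b by 1.63, Fosl2 by 1.59, Dusp1 by 1.58, Ier3 by 1.51 and Egr2 by 1.48. Ier2 (1.39), Socs3 (1.23), Mafk (0.90) and Myc (0.62) had the smallest differences. In Fosl2, Gadd45a and Myc every ICC-DMP array lay above tissue and every ICC-MY array below it. The ICC-MY levels of Gadd45a and Myc cannot be told from background.

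Probe sets that the comparisons did not use showed increases over tissue for 4 genes that passed in no comparison. Egr3 was 4.64 above tissue in ICC-DMP at its second probe set and Nr4a3 2.39 at its second. Btg1 was 2.13 above tissue in ICC-DMP at its second probe set, and 4.10 in ICC-DMP and 2.73 in ICC-MY at the remaining one. The 4 other Nfkbia probe sets were 2.58, 2.71, 2.69 and 1.73 above tissue in ICC-DMP, and 1 of them was 0.82 above tissue in ICC-MY. The cause of the disagreement between probe sets was not tested.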

How the results depend on the processing

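The members higher in ICC-DMP than in tissue numbered 26 to 32 over all settings, those higher in ICC-MY 18 to 26, and those higher in ICC-DMP than in ICC-MY 19 to 32 (31, 24 and 32 with the replicate block). Of the members called, 25 of 28, 16 of 23 and 20 of 26 kept their call in every setting. Members lower in ICC-MY than in tissue (1) became 0 with the mean of probe sets, and 2 with the replicate block or without the 2 narrow-range arrays. With the mean of probe sets Egr3 reversed to 2.28 in ICC-DMP against tissue and to 1.64 between the classes, and Nr4a3 to 0.55 between the classes; their other probe sets carry these values. All genes called in ICC-DMP against tissue (2009) became 3093 with quantile normalization, 1263 without dim genes (9864 tested) and 1264 to 2480 without 1 array. In ICC-MY against tissue (2516) they became 4094 with quantile normalization and 1520 with the compared groups alone. Between the classes (1577) they became 2553 with quantile normalization, 2617 with the replicate block and 2646 with array weights. They became 2630 without the narrow-range arrays and 991 to 1840 without 1 array. With every probe set fitted, 3977, 4452 and 2638 probe sets passed in the 3 comparisons. These count probe sets, of which a gene can have several, so they cannot be set against the counts of genes. Beyond fewer genes or arrays, the cause was not tested. Scaling moved the split of higher against lower genes, from 677 and 1332 to 1506 and 1587 (quantile) or 1304 and 1020 (median centring) in ICC-DMP, from 736 and 1780 to 2037 and 2057 or 1526 and 1403 in ICC-MY, and from 976 and 601 to 1330 and 1223 between the classes. Centring moved the median of all genes from -0.04 to 0.18 and from -0.02 to 0.22 against tissue, and the members' medians from 3.31 to 3.53 and from 1.40 to 1.64. Where 1 array is left out of tissue, the remaining one is assumed to vary like the other groups. Between the classes such a fit repeats that of the compared groups alone, so counts over settings hold that result more than once.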
